A study of Mus musculus with 12 samples.

Results

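Nuclear factor kappa B (NF-kB) was followed through 10 genes: its 5 subunits Rel, Rela, Relb, Nfkb1 and Nfkb2, the inhibitors Nfkbia, Nfkbie and Nfkbiz, and the target genes Traf1 and Birc3. They were taken by gene symbol from an RNA sequencing table of 55322 gene rows, in which each of the 10 symbols had 1 row, and all 10 passed the filter on low values. The libraries came from conventional dendritic cells (cDCs) of the mouse spleen, the cells that take up antigen and present it to T cells. There were 4 groups of 3 libraries, which the titles name M-cDC1, M-cDC2, L-cDC1 and L-cDC2. All 4 groups carry the same genotype label, Il7r-cre; Rosa26-lsl-tdTomato, an allele pair in which Cre expressed from Il7r switches on a red reporter that then stays on in the cell and its progeny. The labels also describe the mice as wild-type C57BL/6J, kept specific-pathogen-free and 7 to 8 weeks old, and name no stimulus. The sample titles do not spell out L and M. The series title speaks of cDCs of lymphoid origin, and nothing in the labels states whether sorting used the reporter, or for which groups. Since a reporter of this design records past Il7r expression, it is a marker of history and not of the present state of a cell. The labels do not tie replicates to animals, so the p-values measure only the spread between these libraries, which may be technical.

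NF-kB proteins act as dimers. Rela and Rel pair mainly with the p50 protein made from Nfkb1, and inhibitor proteins of the I kappa B family hold these dimers in the cytoplasm until a kinase complex marks the inhibitor for destruction (the canonical pathway). Relb pairs mainly with p52, which is cut from the Nfkb2 product when the kinase encoded by Map3k14 is active (the non-canonical pathway). In dendritic cells the pathway is known for its part in maturation, and Relb for its part in the development of splenic cDC2. Several of the genes are themselves targets of NF-kB, Nfkbia being the usual example of such feedback.

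The promoters are shown because several of these genes carry, next to their start, the sequence that NF-kB dimers bind. RefSeq promoter windows (build GRCm38.p6) were available for 7 of the 10 genes, all but Relb, Nfkb1 and Nfkbiz, and the 250 bases before the start of each were searched on both strands. The NF-kB consensus, whose letters are degenerate, was found in 4 of the 7 genes, Rel, Nfkb2, Nfkbia and Nfkbie, against 10.8% of all genes with a window. A looser pattern, GGG followed by any 5 bases and then CC, was present in 6 of the 7, against 48.7% of all genes, and its matches can overlap those of the consensus. In the stretches below, read 5′ to 3′ on the strand of the gene, capitals mark the consensus matches.
Rel (chr11:23771031-23771081, minus strand): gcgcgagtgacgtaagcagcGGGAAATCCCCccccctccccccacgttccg
Nfkb2 (chr19:46304678-46304736, plus strand): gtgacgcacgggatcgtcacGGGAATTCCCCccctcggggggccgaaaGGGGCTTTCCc
Nfkbia (chr12:55492648-55492696, minus strand): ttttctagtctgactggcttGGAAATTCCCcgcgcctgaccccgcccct
Nfkbie (chr17:45555574-45555623, plus strand): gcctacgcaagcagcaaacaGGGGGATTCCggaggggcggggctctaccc
The match lies 92 to 82 bases before the start in Rel, 29 to 20 in Nfkbia and 106 to 97 in Nfkbie. Nfkb2 has several annotated starts, and the stretch printed holds more than 1 match, between 39 and 2 bases before its start. The windows of Rela, Traf1 and Birc3 hold no consensus match. A match describes the letters only, since binding was not measured.

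The libraries held between 15879864 and 24498235 reads assigned to genes, and the members had between 699 reads (Nfkbiz in L-cDC1 replicate 3) and 20897 reads (Traf1) in a library. Levels are in FPKM, fragments scaled by gene length and by library size. The deposited table gives 1 length per gene, for example 12061 bases for Nfkb1 and 3072 for Rela. Whether the transcripts in these cells have that length was not measured. Comparisons between genes, and the shares and ratios below, therefore depend on these lengths. A difference is that of limma on log2(FPKM + 1), a scale that understates changes of low genes, and calls were made where the adjusted p over the 12434 genes tested was below 0.05. The subset labels matched their markers. The 10 cDC1 markers were all higher and the 10 cDC2 markers all lower in cDC1 than in cDC2, in both M and L, with Xcr1 at 181 to 249 FPKM in the cDC1 libraries and 0.773 to 2.08 in the cDC2 libraries. Markers of lymphocytes stood apart in the L libraries, and their values are given with the comparison of L and M.

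The NF-kB genes separated cDC1 from cDC2. All 10 were lower in M-cDC1 than in M-cDC2, and 8 of 10 were lower in L-cDC1 than in L-cDC2, with none higher in either. Among all tested genes, 25.4% were lower and 12.7% higher in M-cDC1 than in M-cDC2, and 26.6% were lower and 12.9% higher in L-cDC1 than in L-cDC2. The median difference (cDC1 minus cDC2) of the 10 genes was -1.19 on the log2 scale in M and -1.10 in L, beside -0.18 and -0.19 over all tested genes. In bulk libraries, fewer cells that express a gene and less RNA of it per cell cannot be told apart. Overlap between the libraries of groups is described for each gene below. The share of all tested genes without overlap is not given, so such statements have no background, here or between L and M. The largest gaps were those of Relb and Nfkb1, and the smallest were that of Birc3 in M and that of Rela in L.

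**Figure D1:**
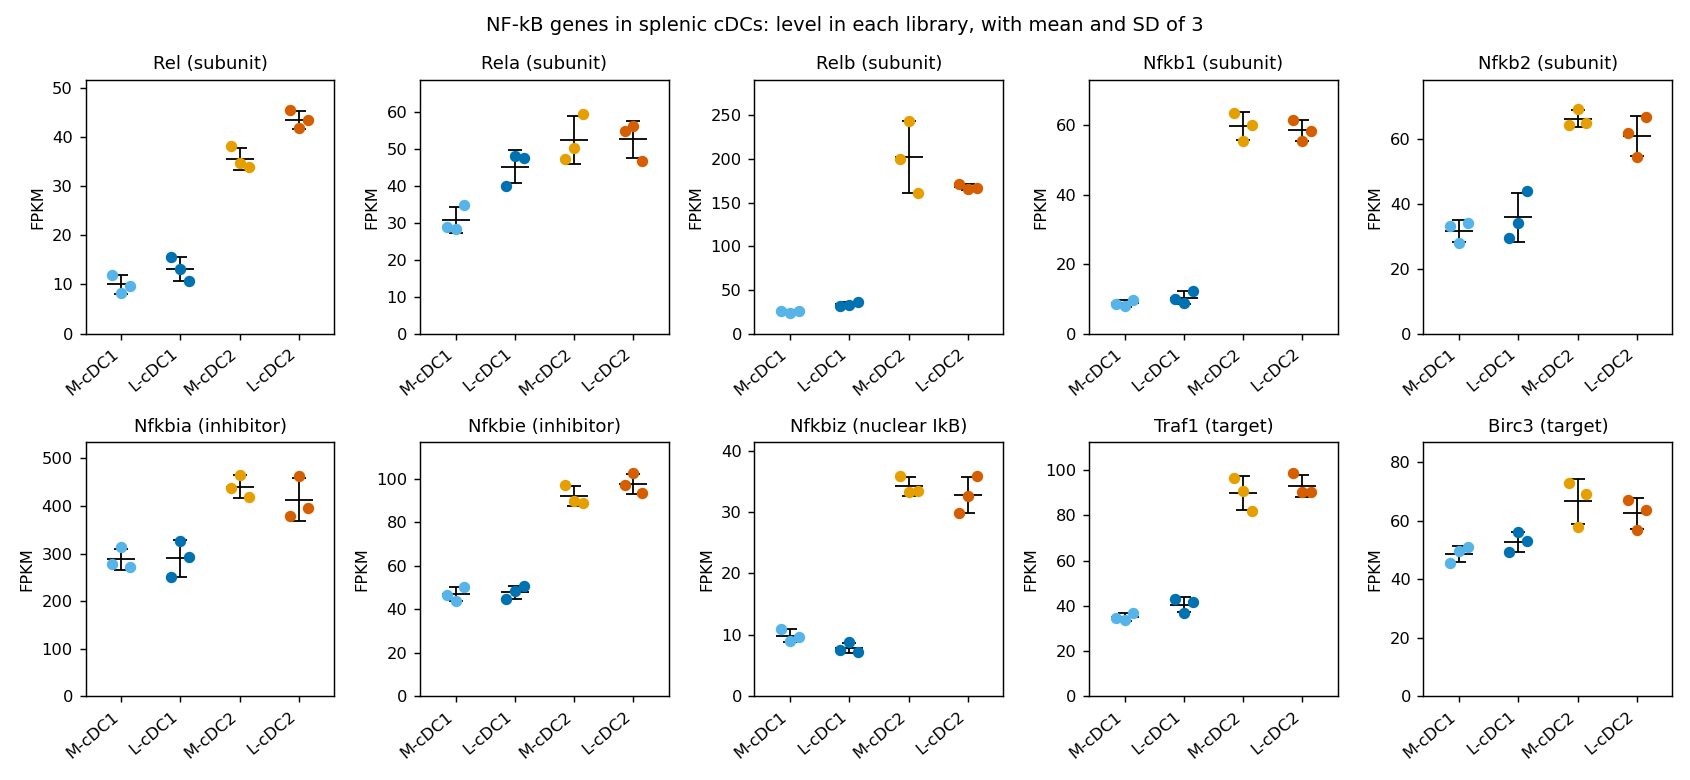
FPKM of each of the 10 NF-kB genes (linear axes from 0, 1 panel per gene), with a point per library and the mean ± SD of the 3 libraries in each group. The cDC2 libraries lie above the cDC1 libraries of the same letter for every gene except Rela, whose L groups overlap. The share of all tested genes that separate in this way is not given.

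Relb (chromosome 7, 19340142 to 19363363 in the deposited table, as for the positions below, whose build the sources used here do not give), a subunit of the non-canonical dimer, had the widest gap in M. Its level was 26.2, 23.0 and 26.1 FPKM in the M-cDC1 libraries and 200, 244 and 161 FPKM in the M-cDC2 libraries. The L-cDC1 libraries had 31.9, 33 and 35.9 FPKM and the L-cDC2 libraries 171, 166 and 167 FPKM. The cDC2 libraries were far above the cDC1 libraries with no overlap, and the M-cDC2 libraries were spread more widely than any other group for this gene. The mean in cDC2 was 8.05 times that in cDC1 in M (log2 difference cDC1 minus cDC2 -2.94, SE 0.128, adjusted p = 4.67e-10) and 5.0 times in L (-2.29, SE 0.128, adjusted p = 6.74e-09).

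Nfkb1 (chromosome 3, 135290416 to 135397308), the source of p50, was with Rel the subunit of lowest FPKM in cDC1. Its levels were 8.57, 7.79 and 9.75 FPKM in M-cDC1 and 63.5, 55.6 and 60.1 FPKM in M-cDC2. In L-cDC1 they were 9.86, 8.72 and 12.3 FPKM, and in L-cDC2 61.6, 55.5 and 58.4 FPKM. Here too every cDC2 library was above every cDC1 library, while the L and M libraries of a subset overlapped. The cDC2 mean was 6.86 times the cDC1 mean in M (-2.65, SE 0.131, adjusted p = 1.78e-09), with 5.68 times in L (-2.41, SE 0.131, adjusted p = 4.79e-09).

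Rel (chromosome 11, 23686847 to 23720970), the c-Rel subunit of lymphoid and myeloid cells, was at 12, 8.26 and 9.74 FPKM in M-cDC1 and at 38.1, 34.6 and 33.9 FPKM in M-cDC2. L-cDC1 had 15.5, 13.1 and 10.7 FPKM and L-cDC2 45.4, 41.7 and 43.4 FPKM. The subsets did not overlap. The cDC2 mean was 3.56 times the cDC1 mean in M (-1.74, SE 0.147, adjusted p = 4.78e-07), with 3.32 times in L (-1.67, SE 0.147, adjusted p = 7.31e-07).

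Nfkb2 (chromosome 19, 46292759 to 46300824), the source of p52 and partner of Relb, differed less than Relb did. Its levels were 33.3, 27.8 and 34.1 FPKM in M-cDC1 against 64.4, 69.2 and 65.0 FPKM in M-cDC2, and 29.4, 34.1 and 43.9 FPKM in L-cDC1 against 61.9, 54.4 and 66.6 FPKM in L-cDC2. The subsets were apart in both, and L-cDC1 showed the largest replicate spread of any gene and group here, a coefficient of variation of 20.8%. The cDC2 mean was 2.09 times that of cDC1 in M (-1.04, SE 0.14, adjusted p = 4.68e-05), with 1.7 times in L (-0.77, SE 0.14, adjusted p = 0.000641).

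Rela (chromosome 19, 5687511 to 5698158) encodes p65, the main activating subunit of the canonical pathway. It was at 29.0, 28.4 and 35.0 FPKM in M-cDC1 and 47.4, 50.3 and 59.7 FPKM in M-cDC2, with no overlap, and the difference was called (-0.75, SE 0.127, adjusted p = 0.000371). In L the levels were 40.1, 48.1 and 47.7 FPKM in cDC1 and 54.9, 56.3 and 46.8 FPKM in cDC2. These L groups overlapped, and the difference of -0.21 did not pass the test (95% confidence interval -0.49 to 0.061, adjusted p = 0.203). That Rela passed in M and not in L does not show a difference between them: the interaction, given with the L and M comparison, was not called.

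The make-up of the subunit pool, each gene's share of the summed FPKM of the 5 subunits, differed between the subsets accordingly. Relb made up 23.6% ± 0.761 (SD, n = 3) of the pool in M-cDC1 and 24.4% ± 0.701 in L-cDC1, but 48.2% ± 5.64 in M-cDC2 and 43.8% ± 0.497 in L-cDC2. Rela went the other way, with 29.0% in M-cDC1 and 32.8% in L-cDC1 against 12.8% in M-cDC2 and 13.7% in L-cDC2. Nfkb2 held 29.8% and 25.7% of the cDC1 pools (M and L) against 16% and 15.9% of the cDC2 pools. For each of these 3 genes the cDC1 and cDC2 libraries did not overlap. Nfkb1 had 7.45% to 8.18% in the cDC1 groups and 14.5% to 15.2% in the cDC2 groups, and Rel between 8.59% and 11.3% in all 4 groups. The summed subunit level itself was 106 ± 10 FPKM in M-cDC1, 138 ± 12 in L-cDC1, 416 ± 36.8 in M-cDC2 and 384 ± 10.9 in L-cDC2. Shares are tied to one another, so a higher share of Relb lowers the others, and they were not tested.

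**Figure D2:**
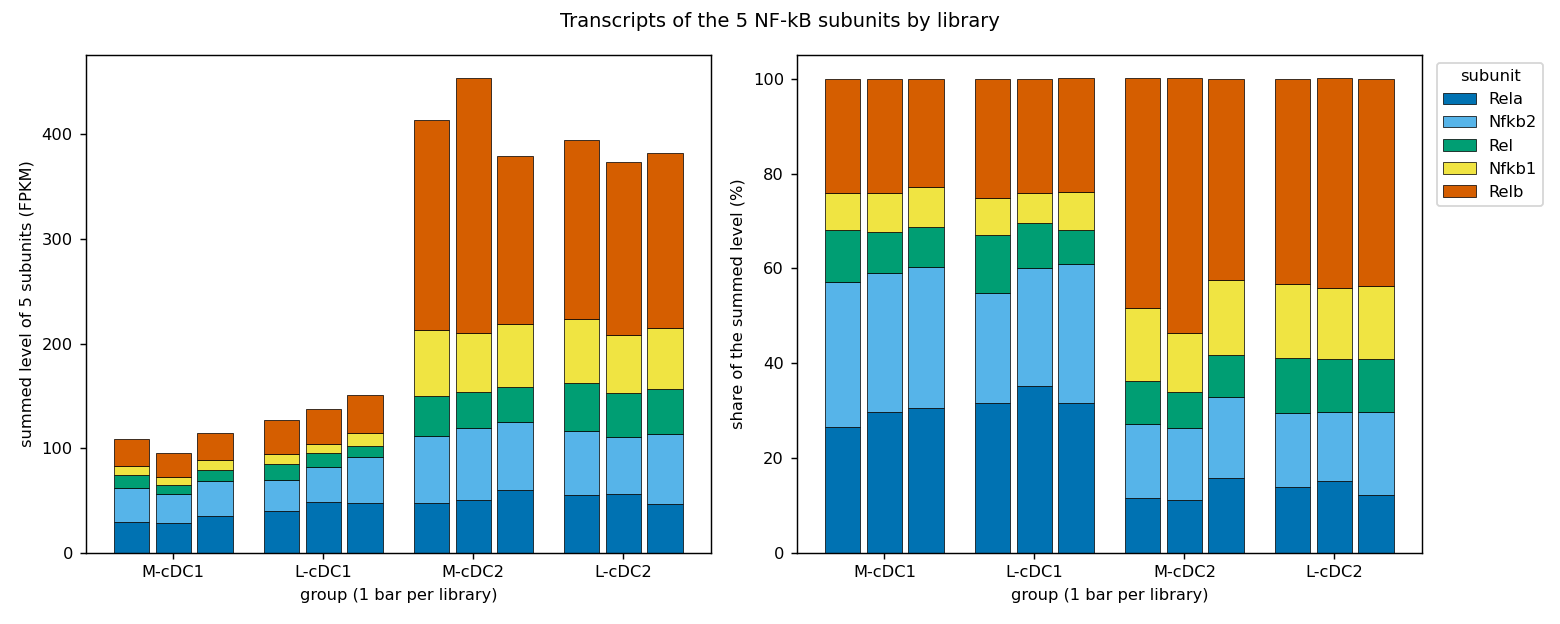
Stacked bars, 1 per library, of the 5 NF-kB subunits: their summed level in FPKM (left) and each one's share of that sum in percent (right), both on linear axes from 0. Relb fills 42.5% to 53.8% of the sum in the M-cDC2 libraries and 22.7% to 24.1% in the M-cDC1 libraries.

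All 3 inhibitors were lower in cDC1. Nfkbia (chromosome 12, 55536195 to 55539432) encodes I kappa B alpha, which is resynthesised after activation and ends the signal. It was the most abundant of the 10 genes, with 278, 313 and 272 FPKM in M-cDC1, 438, 466 and 418 FPKM in M-cDC2, 250, 327 and 292 FPKM in L-cDC1, and 379, 464 and 395 FPKM in L-cDC2. The subsets were separate but near each other, the cDC2 mean being 1.53 times the cDC1 mean in M (-0.61, SE 0.112, adjusted p = 0.000645), with 1.42 times in L (-0.51, SE 0.112, adjusted p = 0.00241).

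Nfkbie (chromosome 17, 45866629 to 45874095) encodes I kappa B epsilon, another cytoplasmic inhibitor. Its levels were 46.8, 44.0 and 50.5 FPKM in M-cDC1 and 97.3, 89.8 and 89.1 FPKM in M-cDC2, and 44.6, 48.4 and 50.6 FPKM in L-cDC1 and 97.4, 103 and 93.4 FPKM in L-cDC2. Replicates were close together and the subsets did not overlap. The differences were -0.95 in M (SE 0.0931, adjusted p = 2.1e-06), with -1.02 in L (SE 0.0931, adjusted p = 1.09e-06).

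Nfkbiz (chromosome 16, 55631738 to 55659262) encodes I kappa B zeta, a nuclear member of the family that also helps to switch on a set of secondary target genes. It was the lowest of the 3 inhibitors, at 11, 8.94 and 9.70 FPKM in M-cDC1 and 35.9, 33.2 and 33.5 FPKM in M-cDC2. In L it was at 7.55, 8.78 and 7.28 FPKM in cDC1 and 29.9, 32.7 and 35.8 FPKM in cDC2. The gap was wide in both, with a cDC2 mean 3.47 times the cDC1 mean in M (-1.70, SE 0.12, adjusted p = 7.6e-08), with 4.17 times in L (-1.93, SE 0.12, adjusted p = 2.01e-08).

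Set against the subunits, Nfkbia was proportionally higher in cDC1. Its FPKM divided by the summed subunit FPKM was 2.74 ± 0.483 in M-cDC1 and 2.1 ± 0.252 in L-cDC1, against 1.06 ± 0.0362 in M-cDC2 and 1.08 ± 0.147 in L-cDC2 (SD, n = 3 each). The same ratio for Nfkbie was 0.444 (M) and 0.347 (L) in cDC1 and 0.223 (M) and 0.255 (L) in cDC2. Both ratios had no overlap between subsets. For Nfkbiz the ratio was 0.093 and 0.0573 in cDC1 of M and L, and 0.0827 and 0.0856 in cDC2. The sum depends much on Relb, which made up 48.2% of it in M-cDC2 and 43.8% in L-cDC2. Against Rela alone the pattern did not hold in L. There the cDC2 mean was 1.42 times the cDC1 mean for Nfkbia and 1.16 times for Rela. In M the values were 1.53 and 1.7. These ratios are descriptions of RNA levels and were not tested.

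Of the target genes, Traf1 (chromosome 2, 34831762 to 34851784) encodes an adaptor of tumour necrosis factor (TNF) receptors. It had 34.5, 33.8 and 37.0 FPKM in M-cDC1 and 96.7, 90.6 and 82.0 FPKM in M-cDC2, with 43.1, 36.6 and 41.7 FPKM in L-cDC1 and 98.5, 90.1 and 90.2 FPKM in L-cDC2. The subsets were well apart. The cDC2 mean was 2.56 times the cDC1 mean in M (-1.33, SE 0.1, adjusted p = 1.45e-07), with 2.3 times in L (-1.18, SE 0.1, adjusted p = 5.13e-07).

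Birc3 (chromosome 9, 7848700 to 7873187) encodes cIAP2, a ubiquitin ligase of the same receptor complexes. Its levels were 45.4, 49.5 and 50.8 FPKM in M-cDC1 against 72.8, 57.8 and 68.9 FPKM in M-cDC2, and 49.3, 56.1 and 52.9 FPKM in L-cDC1 against 66.9, 56.7 and 63.6 FPKM in L-cDC2. The groups did not overlap, though in L the lowest cDC2 library was just above the highest cDC1 library. The difference of -0.44 in M was called (SE 0.11, adjusted p = 0.00621), but median-of-ratios scaling ended that call at -0.24 (adjusted p = 0.117). In L the difference of -0.24 was not called (adjusted p = 0.104).

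**Figure D3:**
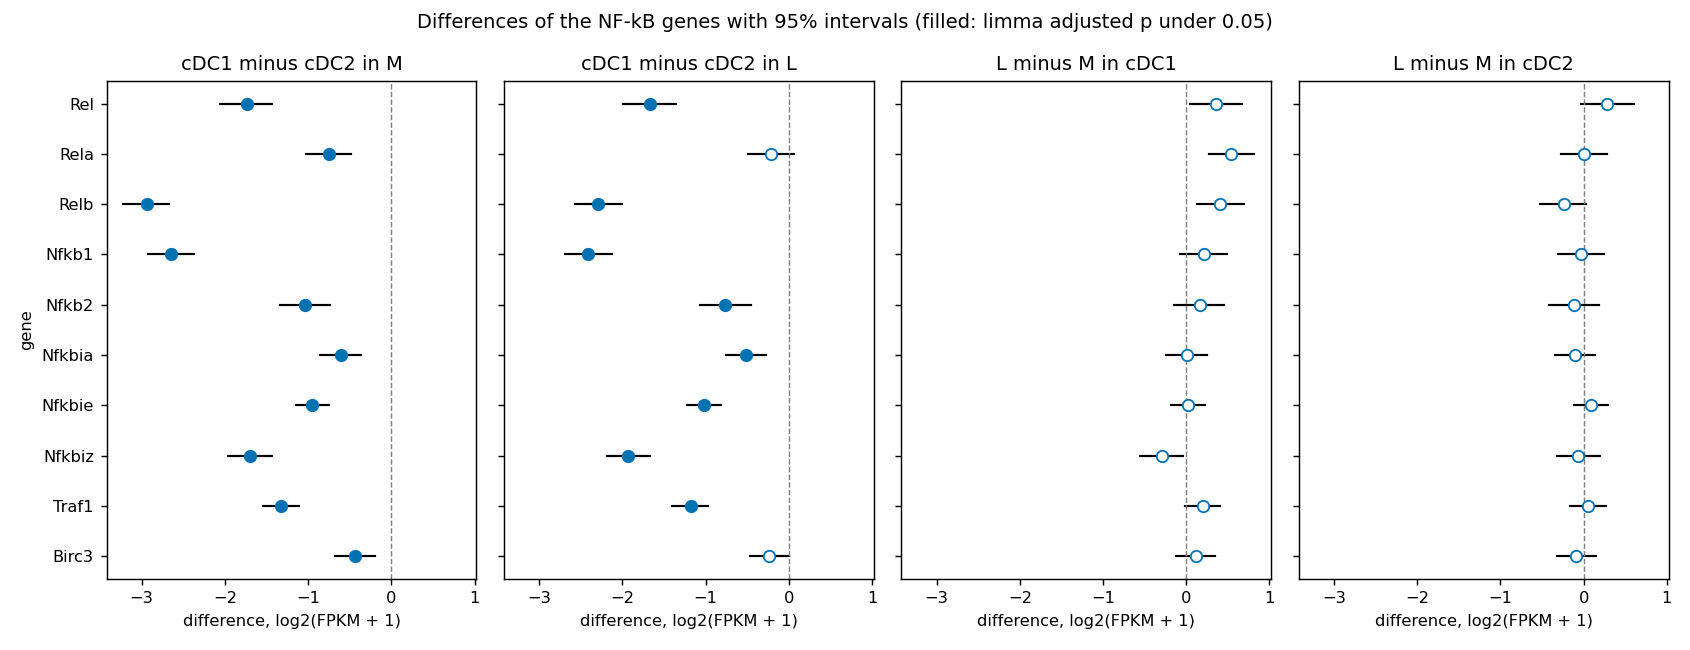
Difference in log2(FPKM + 1) for each of the 10 genes with its 95% confidence interval from limma, by contrast, with filled points for adjusted p under 0.05. The intervals of cDC1 minus cDC2 lie below 0 for all 10 genes in M, while no difference between L and M was called in either subset.

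Some sets of other genes differed between the subsets in their calls or summed levels. The 16 tested genes of an immediate early and dissociation list, which respond to cell handling among other stimuli, included 10 lower in M-cDC1 than in M-cDC2 and 8 lower in L-cDC1 than in L-cDC2, with none higher. Their summed level was 2102 to 2508 FPKM in M-cDC1, 2752 to 3241 in M-cDC2, 2335 to 2686 in L-cDC1 and 2875 to 3557 in L-cDC2. A list of mature DC genes had 5 lower and 2 higher of 9 tested in M and 3 lower and 3 higher in L, with summed levels of 302 to 348 and 713 to 902 FPKM in M-cDC1 and M-cDC2, and 400 to 438 and 719 to 814 in L-cDC1 and L-cDC2. Of 7 tested monocyte and macrophage markers, 5 were lower and 1 higher in cDC1 in M, and 3 were lower and 1 higher in L. The list summed to 428 to 488 FPKM in M-cDC1 and 1016 to 1224 in M-cDC2, and to 329 to 336 in L-cDC1 and 319 to 478 in L-cDC2. In L most of that sum was Lyz2 (322 FPKM in cDC1, 252 in cDC2), while Csf1r was at 1.27 FPKM in cDC1 and 24.1 in cDC2. Some genes stand in more than 1 of these lists and in the target list. The part of these sets in the NF-kB differences was not tested.

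The scaling changed the balance of higher and lower genes over all genes, while the 10 genes kept values below 0 between the subsets. Of the genes called between M-cDC1 and M-cDC2, 33.2% were higher in cDC1, but 48.9% with median-of-ratios scaling and 53.4% with quantile normalization. For L the shares were 32.7%, 48.7% and 52.6%. The median over all genes moved from -0.177 to -0.0263 and 0.0442 in M, and from -0.193 to -0.0357 and 0.0249 in L. The median of the 10 genes moved too, from -1.19 to -0.99 and -1.11 in M, and from -1.10 to -0.90 and -1.06 in L. Counted as lower were 9 and 10 of the 10 in M, and 8 and 8 in L. With median-of-ratios scaling the call of Nfkbia in L was near the threshold (-0.31, adjusted p = 0.0486 by limma). In M it was at -0.42 (adjusted p = 0.0127).

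Other parts of the pathway were read from lists chosen by role. Beside the counts below, 25.4% of all tested genes were lower and 12.7% higher in M-cDC1 than in M-cDC2. For L-cDC1 against L-cDC2 the shares were 26.6% and 12.9%. Of 32 tested adaptors and kinases, which carry the signal from receptors to the inhibitors, 15 were lower and 1 was higher in M-cDC1 than in M-cDC2, and 15 were lower and 3 higher in L-cDC1 than in L-cDC2. Malt1, a protease that relays signals from antigen and lectin receptors, had a difference of -1.97 in M and -2.12 in L. Traf2, an adaptor of TNF receptors, differed by -1.56 and -1.42, and Birc2, which encodes cIAP1, by -1.25 and -1.12. The higher genes, named after their values were seen, were Sharpin, part of the linear ubiquitin ligase, with 0.37 in M and 0.44 in L, and in L also the Toll-like receptor adaptors Ticam1 (1.18) and Tirap (1.28). Leaving out a library ended the call of Sharpin in 9 of 12 fits in M and in 3 of 12 in L. The count of higher genes in M ranged from 0 without a filter to 4 with median-of-ratios scaling.

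Of 16 other tested inhibitors, 9 were lower and 1 higher in M-cDC1, and 8 were lower and 1 higher in L-cDC1, each against cDC2 of the same letter. Bcl3, an atypical I kappa B protein that binds p50 and p52 in the nucleus, differed by -3.29 in M and -2.43 in L. Tank, an adaptor that restrains signalling, differed by -1.67 and -1.37, Nfkbid, another nuclear I kappa B protein, by -1.32 and -1.43, and Tnip1, a ubiquitin-binding partner of A20, by -1.17 and -1.11. Pdlim2 in M (0.40) and Nfkbib in L (0.33), named after their values were seen, were the higher genes. Their calls ended in 4 (Pdlim2) and 6 (Nfkbib) of the 12 fits that left out a library. The count of higher genes ranged from 0 to 4 in M and from 0 to 5 in L over the alternatives, lowest without a filter and highest with quantile normalization.

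Receptors and targets were more mixed than the members. Of 18 tested receptors, 8 were lower and 2 higher in M-cDC1, and 6 were lower and 2 higher in L-cDC1. The receptor counts in L were near the shares of all tested genes. The receptor median was -0.44 in M and -0.08 in L, beside -0.18 and -0.19 over all tested genes. Tlr3 (4.48 in M, 4.62 in L), a sensor of double-stranded RNA and itself a cDC1 marker, and Tlr11 (4.29 and 4.78), which senses profilin, were higher in cDC1. Tlr1 (-4.10 and -3.95), a partner of Tlr2 for lipopeptides, and Tnfrsf13b (-3.66 and -3.75), which encodes the receptor TACI, were lower. The count of higher receptors in L was 5 with median-of-ratios scaling. Of 39 other tested targets, 19 were lower and 12 higher in M-cDC1, and 17 were lower and 15 higher in L-cDC1. The chemokine gene Ccl5 (-3.92 and -3.40) and the cyclin gene Ccnd2 (-2.79 and -3.01) were lower in cDC1 and the chemokine gene Cxcl9 (3.83 and 4.75) was higher. Irf4 (-3.73 in M and -2.93 in L), a transcription factor of cDC2, was lower in cDC1. Il12b (2.26 in M and 4.09 in L), the p40 chain of interleukin 12, was higher.

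**Figure D4:**
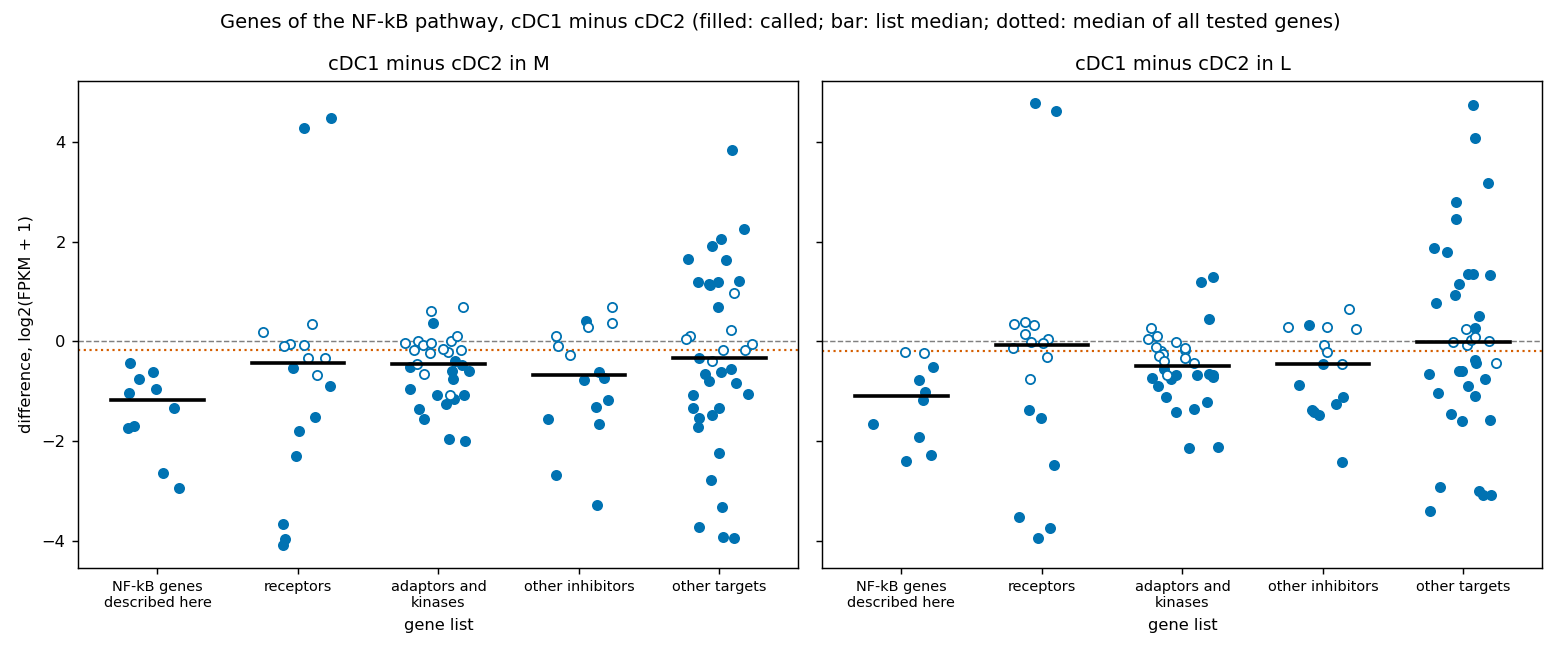
Difference (cDC1 minus cDC2) in log2(FPKM + 1) for the tested genes of each NF-kB list, in M (left) and L (right), with a point per gene spread sideways for sight, filled where called, a bar at the list median and a dotted line at the median of all tested genes. The adaptors and kinases have medians of -0.46 (M) and -0.50 (L), and receptors and targets reach furthest on both sides of 0.

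None of the 10 genes was called between L and M in cDC1, where 0.354% of all tested genes were higher and 0.0402% lower in L. By limma, 4 of the 10 had an unadjusted p under 0.05, and limma-voom on recovered reads called none and had 3. The shares of all tested genes above are at the adjusted threshold. The share at the unadjusted threshold is not given, so such counts have no background here or in the comparisons below. Rela showed the largest difference, with 40.1, 48.1 and 47.7 FPKM in L-cDC1 against 29.0, 28.4 and 35.0 FPKM in M-cDC1. Every L library was above every M library. The log2 difference (L minus M) was 0.54 (SE 0.127, 95% confidence interval 0.27 to 0.82), with an unadjusted p of 0.000864 and an adjusted p of 0.103, which ranged from 0.0688 to 0.374 over the alternatives. Relb followed at 0.41 (adjusted p = 0.243) and Rel at 0.36 (adjusted p = 0.413). Nfkbiz was the only gene of the 10 with a negative value, -0.29 (adjusted p = 0.414), its L libraries all below its M libraries. Nfkb1 (0.21), Traf1 (0.20), Nfkb2 (0.16), Birc3 (0.12), Nfkbie (0.023) and Nfkbia (0.0046) were nearer 0. The signs of Nfkbie and Nfkbia turned with median-of-ratios scaling.

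In cDC2 none of the 10 genes was called between L and M either, where 1.04% of all tested genes were higher and 0.788% lower in L. None had an unadjusted p under 0.05 by limma, and limma-voom called none and had 1. Rel was at 45.4, 41.7 and 43.4 FPKM in L-cDC2 and at 38.1, 34.6 and 33.9 in M-cDC2. The libraries did not overlap, but the difference of 0.28 was not called (95% confidence interval -0.032 to 0.60, adjusted p = 0.565). Relb had -0.24 (adjusted p = 0.572), with a spread among the M-cDC2 libraries that covered the L-cDC2 values. Nfkb2 (-0.12), Nfkbia (-0.098), Birc3 (-0.088), Nfkbiz (-0.062), Nfkb1 (-0.028), Rela (0.0076), Traf1 (0.051) and Nfkbie (0.087) lay closer to 0. The half-width of the 95% confidence interval was 0.20 to 0.32 for the 10 genes. Calls rest on the adjusted p, which asks for more than an interval that leaves out 0. In cDC1, Rela at 0.54, with an interval of 0.27 to 0.82, was not called. With 3 libraries a group, differences larger than these half-widths could therefore be missed too.

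Markers of other cells moved with L and M. Of 14 tested B cell markers, 9 were higher in L-cDC1 than in M-cDC1 and 11 in L-cDC2 than in M-cDC2. The whole list summed to 623 to 1016 FPKM in L-cDC1 against 313 to 360 in M-cDC1, and to 1023 to 3561 in L-cDC2 against 413 to 454 in M-cDC2. Igkc alone had a mean of 990 ± 884 FPKM (SD, n = 3) in L-cDC2. Pax5, which defines B cells, was at 0 in every M library and at 0.0654 to 0.299 FPKM in L-cDC1 and 0.187 to 0.995 in L-cDC2. It stayed below 1 FPKM and was not tested. Its lowest L-cDC1 value is under the worth of 3 reads per kilobase there (0.145 to 0.159 FPKM). Of 10 tested T and NK cell markers, 3 and 7 were higher in L-cDC1 and L-cDC2, and the list summed to 12.8 to 24.3 and 51.8 to 122 FPKM there, against 1.51 to 2.27 and 7.49 to 9.26 in M-cDC1 and M-cDC2. In M-cDC1 3 genes of that list, and in M-cDC2 4, were at 0 in every library. The monocyte and macrophage markers Lyz2 (-1.93) and Csf1r (-1.41) were lower in L-cDC2 than in M-cDC2. Of the mature DC genes, none of 9 was called between L and M in either subset, but their summed levels of 400 to 438 FPKM in L-cDC1 and 302 to 348 in M-cDC1 did not overlap, and of the immediate early list Dusp2 was higher in L-cDC1 (1.80, adjusted p = 0.0322), a call lost in 5 of 12 fits that left out a library and under 3 of 7 other alternatives. The part of these genes and cells in the values of the NF-kB genes was not tested.

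The interaction, the L minus M difference in cDC1 less that in cDC2, called none of the 10 genes, against 0.298% of all tested genes. By limma 2 of the 10 had an unadjusted p under 0.05, and limma-voom called none and also had 2. These counts too have no share of all tested genes at that threshold beside them. Relb had the largest value, 0.65 (SE 0.182, 95% confidence interval 0.26 to 1.04, unadjusted p = 0.00315, adjusted p = 0.261), its L libraries being above the M libraries in cDC1 and inside their range in cDC2. Rela followed at 0.54 (SE 0.18, unadjusted p = 0.0105, adjusted p = 0.389). The half-widths of these intervals ran from 0.28 to 0.45.

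A few other pathway genes did differ between L and M. In cDC2, the receptor gene Tnfrsf13c, which encodes the BAFF receptor of B cells, was higher in L, at 10.7 ± 2.37 FPKM against 2.87 ± 0.419 (SD, n = 3 each; difference 1.58, adjusted p = 0.00207 by limma). It was 1 of 18 tested receptors, and the B cell markers given above were higher in the same libraries. Of 39 other targets, 3 were lower in L-cDC2, among them Cxcl16 (-0.92, adjusted p = 0.00768) and the inflammatory cytokine gene Il1b (-0.82, adjusted p = 0.0387). Il12b, below the level set for naming and named after its values were seen, was the third, at 0.831 ± 0.199 FPKM in L-cDC2 and 2.57 ± 0.227 in M-cDC2. The call of Cxcl16 ended when only the groups compared were fitted (adjusted p = 0.0739), as did that of Il12b (and with limma-voom, highest adjusted p = 0.104). That of Il1b ended without a filter and in 8 of 12 fits that left out a library (highest adjusted p = 0.148). In cDC1, Irak1, a kinase downstream of Toll-like receptors, was higher in L (0.82, adjusted p = 0.0462 by limma), a call that ended in 11 of 12 fits leaving out a library and under 5 of 7 other alternatives, the replicate block (adjusted p = 0.0502) among them, and reached 0.382 when only the groups compared were fitted. Il12b was also higher in L-cDC1 (0.87, adjusted p = 0.0369), and its call ended in 7 of those 12 fits and under 4 of the 7 other alternatives (highest adjusted p = 0.244). Il12b was the only pathway gene called in the interaction (1.83, adjusted p = 0.00581), a call that limma-voom ended (0.0872).

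As a description of pattern, the tested genes whose log2(FPKM + 1) followed each member most closely over the 12 libraries were ranked by Pearson's r. The 12 values fall into a cDC1 and a cDC2 cluster, share library and depth, and r mostly measures that split. Relb was followed by Pdcd1lg2 (0.996), the gene of a ligand of PD-1, and Ccl5 (0.993), Nfkb1 by Arhgap9 (0.999) and Dab2ip (0.998), and Rel by Slc38a1 (0.995) and Mapk11 (0.993). For Nfkb2 the genes were Dip2b and Dmac2 (0.984 each), and for Rela Ubn1 (0.967) and Pex6 (0.944). Among the inhibitors, Nfkbie was followed by Nrros and Runx3 (0.996 each), Nfkbiz by Sting1 (0.995) and Ms4a6b (0.994), and Nfkbia by Nlrp3 (0.969) and Ehf (0.964). Traf1 was followed by Rogdi (0.996) and Ctsd (0.995), and Birc3 by Fbxo22 (0.952) and Myd88 (0.950). Between members, r ran from 0.642 (Rela and Nfkbiz) to 0.993 (Nfkb1 and Traf1).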

How the data were processed

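Bulk RNA from 12 libraries was made into complementary DNA with SMART-Seq HT and into libraries with Nextera XT, per the labels' protocols, a preparation that keeps no strand. The deposited values are FPKM per gene. Listed in the submitters' processing notes are featureCounts 2.0.1, STAR 2.7.9a, DESeq2 1.20.0, cutadapt 3.7, Trimmomatic 0.39, Trim Galore 0.6.7 and the human build GRCh38, although the symbols are those of mouse; the build behind the table's coordinates is not given in the sources used here. Strand was not kept, so overlapping genes cannot be told apart. Whole reads were recovered from the FPKM and gene lengths, 100% of values lying within 0.01 of a whole number. The 12434 genes that reached 1 FPKM in 3 or more libraries were tested with limma 3.58.1 (R 4.3.3) on log2(FPKM + 1), trend on, in a single fit over all 12 libraries with a mean per group and Benjamini-Hochberg adjustment. The code of the test was run on simulated reads, with the same dispersion for every gene and changes in L-cDC1 only. Such reads are simpler than these data, so that run bears on the code alone. Named genes were the 10 members, up to 4 called genes of smallest p per pathway list and comparison with at least 5 FPKM in the higher group, the 2 genes most like each member, and up to 3 called markers per cell type list. Xcr1 and Pax5 were picked from their lists with values known. The members, lists and tests were chosen with earlier results of these data known. Alternatives were a pseudocount of 0.1, no filter, median-of-ratios and quantile scaling, limma-voom on the recovered reads, a replicate block, fitting only the groups compared, and leaving out each library. No protein sequences were used here, and some genes that the naming rule or the marker lists cover are not reported here.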

Additional observations from a re-analysis of the deposited data

How the results depend on the processing

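Each member had at least 699 reads in every library, and each group had 3 libraries. Of 940 values of the members' differences under the alternatives, 920 kept direction and side of the threshold, 1 lost its call (Birc3 in M, above) and 19 changed sign, all of them in comparisons of L with M or their interaction, where no member was called. With median-of-ratios scaling, L minus M in cDC1 was -0.029 for Nfkbia and -0.0097 for Nfkbie, and L minus M in cDC2 was -0.023 for Rela. Leaving out each library in turn, these ran from -0.088 to 0.11, from -0.024 to 0.074 and from -0.061 to 0.10, and in cDC2 Nfkb1 from -0.078 to 0.017, Nfkbiz from -0.13 to 0.00056 and Traf1 from -0.012 to 0.11. The interaction of Rel ran from -0.046 to 0.20. The cause was not tested. Counts over all genes moved more. L minus M in cDC1 had 49 called genes, 80 with a pseudocount of 0.1, 14 without a filter, 17 when only its groups were fitted, and 24 to 102 when a library was left out (83 without L-cDC1 replicate 1, 102 without M-cDC1 replicate 1, 24 without M-cDC1 replicate 2, 26 without M-cDC1 replicate 3). L minus M in cDC2 had 227, 137 when only its groups were fitted, and 146 to 232 (146 without M-cDC2 replicate 2). The interaction had 37, 21 with a pseudocount of 0.1, 10 with limma-voom, and 10 to 38 (10 without M-cDC2 replicate 2, 14 without M-cDC1 replicate 2, 21 without M-cDC1 replicate 3, 24 without L-cDC1 replicate 2 or replicate 3). It uses all groups, so fitting only its groups is no alternative.

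The groups share replicate numbers, but nothing in the labels says that a number marks a shared animal or day. Deviations from the group means correlated at -0.01009 to 0.1559 in 18 pairs with the same number, of which 3 were above 0.1, and at -0.1533 to 0.08853 in 36 pairs with different numbers. By mean correlation 11 of 12 libraries were closest to those with their own number, a hint from the data and not the design. With the replicate block the called members stayed 10 in M and 8 in L between subsets and 0 in the other comparisons, and the called genes were 4754, 4952, 45, 233 and 25 for the subsets in M and L, L minus M in cDC1 and cDC2, and the interaction.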
